A study of Mus musculus with 6 samples.

Results

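The molecular chaperones and co-chaperones of the mouse oocyte were examined as the genes whose symbol begins with Hspa, Hspb, Hspd, Hspe, Hsph or Hsp90, with Dnaja, Dnajb or Dnajc and a digit, or with Cct, Hsf or Bag and a digit. This rule uses names and no measured value, though the members were chosen with earlier results of these data known. It found 95 of the 23284 gene symbols in the files. They were divided by protein class into 3 HSP90 genes, 11 HSP70 genes, 3 HSP110 genes, 7 small HSP genes, 2 mitochondrial chaperonin genes, 9 CCT genes, 45 J-protein genes (4 Dnaja, 13 Dnajb and 28 Dnajc), 7 genes of the BAG and HspBP1 exchange factors and 5 heat shock factors. The other 3, Hspb11, Hspbap1 and Hsf2bp, matched the rule by name and are not chaperones. They are kept in the counts below, where all 95 genes, heat shock factors included, are called chaperone genes for short.

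RNA was sequenced from germinal vesicle (GV) oocytes, the fully grown stage that waits in prophase before meiosis resumes, in 3 Lsd1 KO and 3 Control samples of 100 oocytes each. All came from females of a mixed C57BL/6 and 129 background aged 4 to 6 weeks, taken 48 hours after priming with gonadotrophin (5 IU PMSG). Lsd1 is another name of Kdm1a, a histone lysine demethylase. The sources used here do not give the allele, the promoter that drove its deletion, the exons removed or whether animals were pooled within a sample. The series compares the genotypes to ask how loss of the enzyme changes gene expression in the oocyte.

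Chaperones bind unfolded or partly folded proteins and help them reach, or return to, their working shape. HSP70 binds and releases its clients in a cycle driven by ATP. J-proteins deliver the clients and start ATP hydrolysis, and HSP110, BAG and HspBP1 proteins drive the exchange of nucleotide that lets the client go. HSP90 acts later, on kinases, receptors and other nearly folded clients, CCT folds actin and tubulin in a ring, and HSF1 is the main activator of heat shock genes. In mouse oocytes HSF1 is known as a maternal factor needed for meiosis, and Hsp90aa1 is among the genes known to depend on it there.

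Total counts per library ran from 10735422 to 13035045, and between 15762 and 16815 genes had a count. Kdm1a had 47, 31 and 36 counts in Lsd1 KO replicates 1 to 3 and 799, 962 and 492 counts in Control replicates 1 to 3, so the gene was low in every library labelled Lsd1 KO. All 10 oocyte markers were tested and present, summing to 31690 to 36644 CPM (counts scaled to library depth by the TMM method) in Lsd1 KO oocytes against 22437 to 26939 CPM in Control. Gdf9, called higher, went from 6057 to 15558 CPM, and the other oocyte markers had mean sums of 19157 and 19367 CPM in Lsd1 KO and Control; 7 of the 10 had a negative log2 fold change (median -0.17), and Mos was called lower. Among markers of other cells, 11 granulosa and cumulus genes summed to 352 to 464 CPM (Lsd1 KO) against 123 to 143 CPM (Control). Of 8 tested, 2 were higher and 1 lower. Cyp19a1, called higher, made up 324 CPM of the Lsd1 KO mean and 36.8 CPM of the Control mean. Without Cyp19a1 the mean sum was lower for Lsd1 KO, at 78.2 against 94.7 CPM. Inha was also called higher (28.6 and 11.2 CPM) and Nr5a2 lower (28.7 and 69.4 CPM). The defining marker Foxl2 was at 3.32 and 0.899 CPM. Theca and stroma markers (7 genes, 1 higher of 3 tested) summed to 9.56 to 16.3 CPM and 2.22 to 3.16 CPM, with none at 0 in all libraries. Blood and immune markers (12 genes, none called of 8 tested) summed to 133, 9.83 and 94.0 CPM in Lsd1 KO replicates 1 to 3 and 31.8, 5.80 and 38.4 CPM in Control replicates 1 to 3, with the 4 globin genes at 0 in all. Log2 fold changes were positive for 6 of 8 granulosa and cumulus markers tested (median 1.35) and 3 of 3 for theca and stroma (median 0.51). For blood and immune markers 8 of 8 tested were positive (median 1.70). Immediate early genes, which respond to handling, summed to 125 to 275 CPM and 239 to 325 CPM. Dusp1 was called lower (104 and 202 CPM), and the sums without it had means of 77.0 and 80.4 CPM; 5 of the 8 had a positive log2 fold change (median 0.50), none of them called. The part of these markers in the results below was not tested. Values after ± are the SD over the 3 libraries of a genotype for levels and the SE for log2 fold changes, and where a pair of levels is given, that of Lsd1 KO comes first. In bulk RNA, fewer cells of a type and less RNA per cell cannot be told apart.

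Of the 95 genes, 77 passed the filter on low counts and were tested. With edgeR's quasi-likelihood test and Benjamini-Hochberg adjustment over all 12935 genes in the test, 9 rose and 9 fell in Lsd1 KO oocytes at an adjusted p under 0.05, and 59 did not pass. That is 23.4% of those tested, beside 21.3% of all genes tested (11% higher and 10.3% lower), so the share called among chaperone genes lay near the background. The values of the groups did not overlap for 29 of the 77 (37.7%), beside 38.7% of all genes tested. All 95 genes took 1.34, 1.30 and 1.37% of the counts in the 3 Lsd1 KO libraries against 1.72, 1.62 and 1.58% in the 3 Control libraries, so that this share was lower in each Lsd1 KO library. A few genes held most of this difference. The 9 called lower summed to 4869 ± 264 CPM in Lsd1 KO oocytes against 8114 ± 587 CPM in Control, with 2633 and 4238 CPM from Hsp90aa1. The 9 called higher summed to 643 ± 36.8 and 333 ± 48.3 CPM, and the 59 not called to 7737 ± 220 and 8153 ± 113 CPM. These sets were formed by the test itself, so the direction of each sum of called genes was fixed in advance. The median log2 fold change of the 77 was -0.05, and that of all genes tested was -0.01. After a correction for exonic length and GC content 8 chaperone genes were higher and 14 lower. Over all 12544 genes in that fit 1192 were higher and 1516 lower, beside 1421 and 1329 of 12935 without the correction. The median exonic length was 1631 bases for the 9 genes called higher in the uncorrected test. It was 3931 bases for the 9 called lower and 3551 bases for the 59 not called. Leaving out Lsd1 KO replicate 1 left 4 chaperone genes higher and leaving out Control replicate 2 left 5, and 4 were lower without any one of Control replicate 1 and Lsd1 KO replicates 1 and 3. Calls fell over all genes too, with 949 and 985 higher without Lsd1 KO replicate 1 or Control replicate 2, beside 1421. Genes called lower numbered 994, 638 and 727 without Control replicate 1, Lsd1 KO replicate 1 and Lsd1 KO replicate 3, beside 1329.

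**Figure D1:**
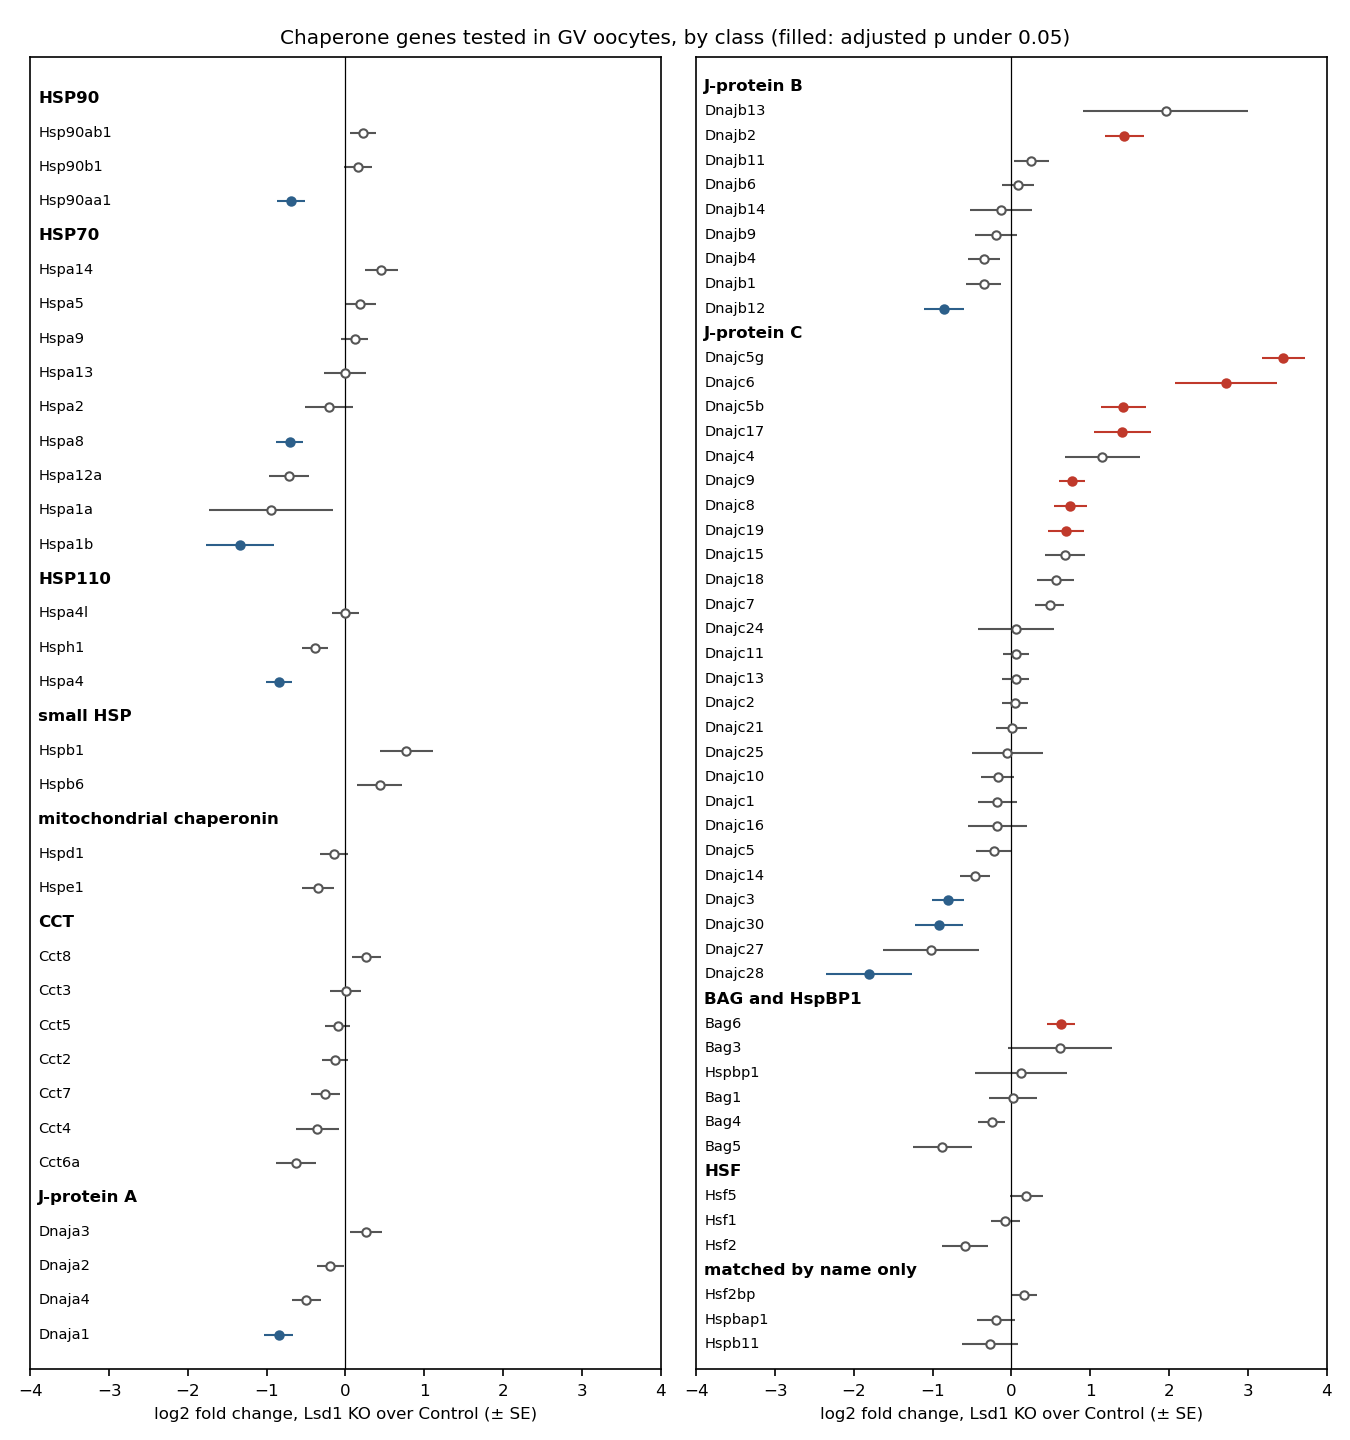
Log2 fold change (Lsd1 KO over Control, horizontal axis, ± SE) of the 77 chaperone genes tested, sorted within each class. Filled points passed an adjusted p of 0.05, red for higher and blue for lower; the 9 higher genes include 7 of the Dnajc class, and the 9 lower genes include Hsp90aa1, Hspa8, Hspa4 and Dnaja1.

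Of the 3 HSP90 genes, 1 was lower and none higher (33.3% called, beside 21.3% of all genes tested). Hsp90aa1, the stress-responsive cytosolic HSP90 alpha, had the highest level per length of all chaperone genes, at 670 CPM per kb of exon in Lsd1 KO oocytes against 1078 CPM per kb in Control. It was at 2297, 2804 and 2797 CPM in Lsd1 KO replicates 1 to 3 and at 4731, 3855 and 4129 CPM in Control replicates 1 to 3. The highest Lsd1 KO library therefore stayed below the lowest Control library. The difference was a log2 fold change of -0.69 ± 0.18 (SE, at an edgeR adjusted p of 0.0166), which is 1.61-fold lower. Hsp90aa1 lies on mm9 chromosome 12 from 111928815 to 111940938. It was not called with Lsd1 KO replicate 1 or Control replicate 1 left out (adjusted p up to 0.108).

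Hsp90ab1, the constitutive cytosolic HSP90 beta, was at 387, 405 and 440.0 CPM in Lsd1 KO oocytes, against 357, 322 and 374 CPM in Control. Its groups did not overlap, with Lsd1 KO above Control, but it did not pass (log2 0.23 ± 0.16 at an edgeR adjusted p of 0.354). The ratio of Hsp90aa1 to Hsp90ab1 within each library, on levels per kb, was 4.53, 5.28 and 4.85 in Lsd1 KO oocytes against 10.1, 9.13 and 8.41 in Control. Control libraries thus held 9.22 ± 0.852 alpha per beta and Lsd1 KO libraries 4.89 ± 0.375 (SD, n = 3 per genotype, two-sided exact permutation p = 0.1 and 0.1 after adjustment over the 2 ratios computed, the smallest p that 3 against 3 allows). The ratio was chosen after the values of both genes had been seen. The third gene, Hsp90b1 (GRP94 of the endoplasmic reticulum, ER), was at 471 ± 21.1 CPM in Lsd1 KO oocytes against 422 ± 59.5 CPM in Control (log2 0.16 ± 0.17 at an edgeR adjusted p of 0.546), and its groups overlapped.

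**Figure D2:**
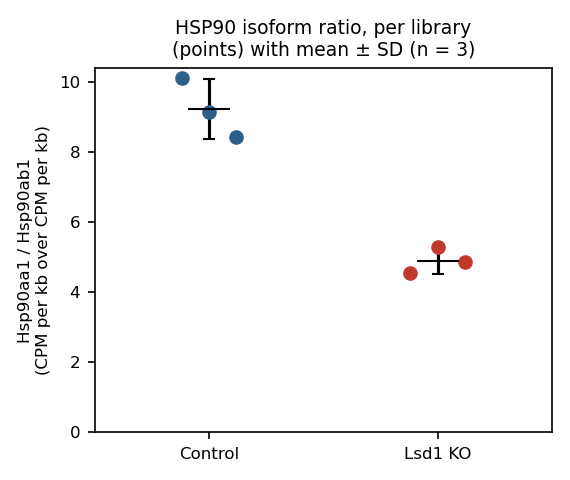
Ratio of Hsp90aa1 to Hsp90ab1 in each library (vertical axis, CPM per kb of exon over CPM per kb of exon), with 3 points per genotype and bars for the mean ± SD. The 3 Lsd1 KO libraries lie between 4.53 and 5.28 and the 3 Control libraries between 8.41 and 10.1.

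In the HSP70 class, 2 of the 9 genes tested were lower and none higher, and this 22.2% lay near the 21.3% of all genes tested. Hspa8, the constitutive cytosolic HSC70, was at 878, 826 and 929.7 CPM in Lsd1 KO oocytes, against 1280.1, 1389 and 1628 CPM in Control. All Lsd1 KO libraries were below all Control libraries, and the log2 fold change was -0.71 ± 0.17 (SE) at an edgeR adjusted p of 0.0129, 1.63-fold lower. Hspa8 lies on mm9 chromosome 9 from 40609067 to 40613283 and carries 3 small nucleolar RNA genes on its own strand. Hspa8 was not called with Lsd1 KO replicate 1 left out (adjusted p = 0.0631).

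The stress-inducible HSP70 genes had few counts in these libraries. Hspa1b had 116, 32 and 53 counts in Lsd1 KO oocytes against 127, 134 and 236 counts in Control, which is 9.30, 2.89 and 4.76 CPM against 11.7, 10.1 and 21.3 CPM. It passed (log2 -1.34 ± 0.43 at an edgeR adjusted p of 0.0434) without overlap of the groups. Hspa1b was not called with Lsd1 KO replicate 2 or 3 or Control replicate 1 or 3 left out (adjusted p up to 0.14), and with upper-quartile scaling or library totals. Its neighbour Hspa1a has a near-identical sequence, so that reads could be split between them or left out in counting. The sources used here do not say which, and reads left out would be missing from both genes. Hspa1a had 17, 2 and 25 counts against 11, 23 and 51 and did not pass (edgeR adjusted p = 0.42). Summed over both genes, the level was 10.7, 3.07 and 7.002 CPM in Lsd1 KO oocytes against 12.8, 11.8 and 25.9 CPM in Control, so that the groups did not overlap either. On mm9 chromosome 17, Hspa1b spans 35093381 to 35096183 and Hspa1a spans 35106144 to 35109069.

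The other HSP70 genes tested did not pass in edgeR. Hspa12a, a distant member of the family, was at 37.0 ± 11.1 CPM in Lsd1 KO oocytes against 61.0 ± 17.4 CPM in Control (log2 -0.72 ± 0.25 at an edgeR adjusted p of 0.0619); it passed with DESeq2 (0.0369) and under the length and GC correction (0.0463). Hspa9, the mitochondrial HSP70, was at 211 ± 24.5 and 194 ± 16.8 CPM, and the ribosome-associated Hspa14 at 43.3 ± 5.43 and 31.6 ± 6.26 CPM (log2 0.46 ± 0.20 at an edgeR adjusted p of 0.132). Hspa13 stood at 9.76 ± 0.613 and 9.82 ± 0.147 CPM, a log2 fold change of -0.01 ± 0.27. Hspa2, which is best known for its part in spermatocytes, was at 8.37 ± 1.56 and 9.68 ± 2.054 CPM.

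HSP110 proteins are HSP70 relatives that act as its nucleotide exchange factors. Hspa4 was at 345, 398 and 359 CPM in Lsd1 KO oocytes, against 629.6, 729 and 621 CPM in Control. The groups were well apart, and the log2 fold change of -0.85 ± 0.17 (SE) at an edgeR adjusted p of 0.00454, 1.798-fold lower, held with each library left out (adjusted p up to 0.0369). Hspa4 lies on mm9 chromosome 11 from 53073316 to 53113959. Hsph1, which gave the class its name, was at 588, 607 and 705 CPM in Lsd1 KO oocytes against 819, 875 and 797 CPM in Control; the groups did not overlap, but it did not pass (log2 -0.39 ± 0.17 at an edgeR adjusted p of 0.113). The third gene, Hspa4l, had means of 63.5 ± 4.44 and 63.5 ± 3.86 CPM.

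**Figure D3:**
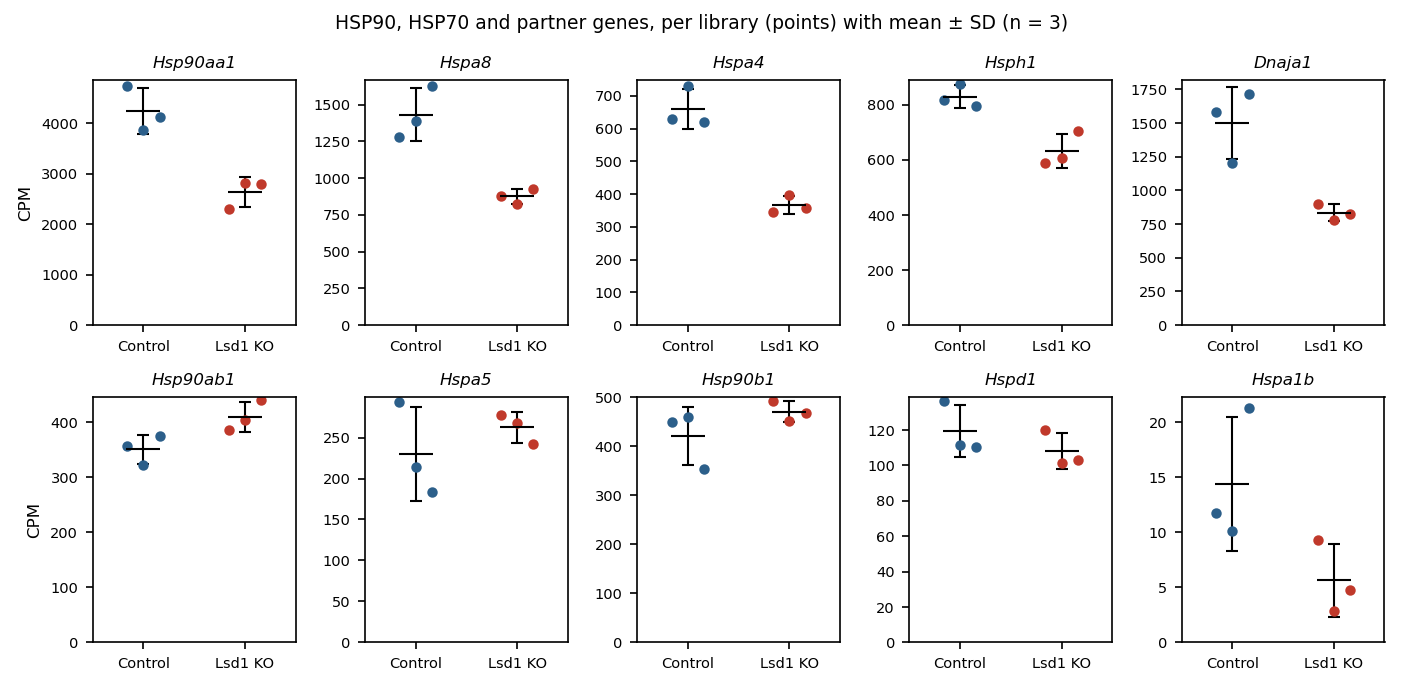
Level in each library (vertical axes, CPM after TMM scaling, each starting at 0) of 10 HSP90, HSP70, HSP110, J-protein and chaperonin genes, with 3 points per genotype and bars for the mean ± SD. Hsp90aa1, Hspa8, Hspa4, Hsph1, Dnaja1 and Hspa1b show no overlap with Lsd1 KO lower, Hsp90ab1 shows none with Lsd1 KO higher, and Hspa5, Hsp90b1 and Hspd1 overlap.

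Promoter windows were searched for the heat shock element that HSF proteins bind, the blocks GAA, TTC and GAA with 2 free bases between neighbours, and for the ER stress element, CCAAT and CCACG with 9 free bases between them, each on both strands. The windows are those of RefSeq on GRCm38.p6, from 250 bases before to 50 bases after each start, and 77 of the 95 symbols had one or more. The heat shock element was in a window of 4 of these 77 genes (5.19%), against 179 of 27025 genes in the whole table (0.662%). The 4 were Hsph1, Dnajb6, Hspd1 and Hspe1, and none of them passed the test of expression. Only exact matches of the blocks were counted, so a gene without one may still hold an imperfect element. The windows of Hspa1a, Hspa1b, Dnajb1 and Hspb1 were searched and held no exact match. No window was given for 18 symbols, among them Hsp90aa1, Hsp90ab1, Hspa8 and Hsf1. The Hsph1 window on GRCm38.p6 chr5:149636266-149636565, minus strand, is printed with its element in capitals because the gene has the highest mean level per length over the 6 libraries in the HSP110 class, though it did not pass; the element begins at base 16 counted from the start.
Hsph1: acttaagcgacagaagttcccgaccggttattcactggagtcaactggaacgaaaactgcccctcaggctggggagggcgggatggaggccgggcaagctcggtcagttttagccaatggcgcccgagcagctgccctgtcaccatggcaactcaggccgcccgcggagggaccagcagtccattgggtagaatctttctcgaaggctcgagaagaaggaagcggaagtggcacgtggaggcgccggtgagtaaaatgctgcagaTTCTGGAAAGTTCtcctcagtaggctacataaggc

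The mitochondrial chaperonins Hspd1 (HSP60) and Hspe1 (HSP10), which form the folding chamber of the matrix, lie head to head on mm9 chromosome 1, from 55134679 to 55145087 and from 55144976 to 55148151, and overlap by 112 bases on opposite strands. Hspd1 was at 120, 101 and 103 CPM in Lsd1 KO oocytes against 137, 111 and 111 CPM in Control, and Hspe1 at 206, 171 and 219.7 CPM and 297, 183 and 279 CPM. Their groups overlapped and neither passed in edgeR (log2 -0.14 ± 0.17, adjusted p = 0.588, and -0.35 ± 0.21, adjusted p = 0.254). Neither had an unadjusted p under 0.05 or passed with DESeq2 or limma-voom, and Hspe1 passed after the length and GC correction (log2 -0.59, adjusted p = 0.0381). Their shared promoter is shown as the Hspe1 window, GRCm38.p6 chr1:55087898-55088197, plus strand, because it holds a pair of overlapping heat shock elements, in capitals, that begin 89 and 84 bases before the Hspe1 start; the window of Hspd1 holds the same elements on the other strand.
Hspe1: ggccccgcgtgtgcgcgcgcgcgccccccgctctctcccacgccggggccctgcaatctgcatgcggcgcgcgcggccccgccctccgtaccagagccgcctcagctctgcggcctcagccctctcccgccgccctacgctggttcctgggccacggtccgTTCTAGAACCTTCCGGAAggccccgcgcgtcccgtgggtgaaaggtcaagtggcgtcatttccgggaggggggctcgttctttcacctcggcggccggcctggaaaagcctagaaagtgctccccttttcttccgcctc

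Chaperones of the ER lumen gave sums that overlapped between genotypes. The 8 genes of this compartment, a list drawn up after the values had been seen (Hspa5, Hspa13, Hsp90b1, Dnajb9, Dnajb11, Dnajc1, Dnajc3 and Dnajc10), summed to 1214, 1172 and 1132 CPM in Lsd1 KO oocytes against 1232, 1175 and 1142 CPM in Control. Hspa5 (BiP), the HSP70 of the ER, was at 278, 268 and 242 CPM in Lsd1 KO oocytes against 293, 214 and 183 CPM in Control, with overlap and no call (log2 0.19 ± 0.20 at an edgeR adjusted p of 0.525). The ratio of Hspa8 to Hspa5 per length, cytosol over ER, was 2.67, 2.61 and 3.25 in Lsd1 KO oocytes against 3.69, 5.49 and 7.52 in Control, without overlap (two-sided exact permutation p = 0.1, the smallest that 3 against 3 allows). The ratio also was chosen after the values were seen. Of the 8 genes, 1 was lower (12.5%, beside 21.3% of all genes tested). This was Dnajc3 (P58IPK), a BiP co-chaperone induced by ER stress, at 120, 175 and 112 CPM against 224, 220.0 and 267 CPM. Its log2 fold change was -0.80 ± 0.20 (SE) at an edgeR adjusted p of 0.0143, and it was not called with Lsd1 KO replicate 1 or 3 left out (adjusted p up to 0.0865). The J-proteins Dnajb11 (164 ± 37.6 and 138 ± 35.3 CPM) and Dnajc10 (74.3 ± 17.3 and 84.0 ± 11.3 CPM) did not pass.

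The ER stress element was in a window of 3 of the 77 chaperone genes (3.9%), against 37 of all 27025 genes (0.137%), and the 3 were Hspa5, Hsp90b1 and Dnajc3. Of these, Dnajc3 was lower in Lsd1 KO oocytes, and the other two did not pass. Their windows are printed so that the shared element, in capitals, can be seen: Hspa5 on GRCm38.p6 chr2:34771840-34772139, plus strand, with the element beginning 65 bases before the start, Hsp90b1 on chr10:86705395-86705694, minus strand, with elements on either strand beginning 212 and 107 bases before the start, and Dnajc3 on chr14:118937682-118937981, plus strand, with the element beginning 105 bases before the start.
Hspa5: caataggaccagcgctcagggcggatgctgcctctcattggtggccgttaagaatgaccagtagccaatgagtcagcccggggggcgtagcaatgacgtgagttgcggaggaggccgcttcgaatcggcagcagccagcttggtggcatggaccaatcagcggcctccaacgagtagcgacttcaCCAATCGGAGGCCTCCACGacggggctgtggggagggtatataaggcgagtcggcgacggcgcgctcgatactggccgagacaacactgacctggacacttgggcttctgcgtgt
Hsp90b1: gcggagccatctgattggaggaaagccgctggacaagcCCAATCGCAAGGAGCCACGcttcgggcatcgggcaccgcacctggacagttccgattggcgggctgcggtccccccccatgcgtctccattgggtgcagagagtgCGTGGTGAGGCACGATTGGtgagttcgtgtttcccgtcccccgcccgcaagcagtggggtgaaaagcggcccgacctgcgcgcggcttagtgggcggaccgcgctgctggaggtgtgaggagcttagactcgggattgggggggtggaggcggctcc
Dnajc3: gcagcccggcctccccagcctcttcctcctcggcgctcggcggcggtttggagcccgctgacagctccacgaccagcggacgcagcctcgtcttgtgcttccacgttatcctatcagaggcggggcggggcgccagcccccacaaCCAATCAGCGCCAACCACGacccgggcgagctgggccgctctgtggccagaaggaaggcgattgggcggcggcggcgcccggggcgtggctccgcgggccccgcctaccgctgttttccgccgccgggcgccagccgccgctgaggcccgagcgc

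J-proteins changed in both directions: of 45 genes, 39 were tested, 8 were higher, 5 lower and 26 did not pass (33.3% called, beside 21.3% of all genes tested, a difference that was not tested). The classes differ in build. Dnaja and Dnajb proteins resemble bacterial DnaJ in whole or in part, and Dnajc proteins share the J-domain alone and have specialised tasks. Dnaja1, the main cytosolic partner of HSC70, was at 900.3, 778 and 824 CPM in Lsd1 KO oocytes, against 1584, 1204 and 1719 CPM in Control. All Lsd1 KO libraries were lower, with a log2 fold change of -0.85 ± 0.19 (SE) at an edgeR adjusted p of 0.0076, 1.801-fold lower, and the call held with each library left out (adjusted p up to 0.0336). Dnaja1 lies on mm9 chromosome 4 from 40669183 to 40684182 and overlaps Smu1 by 608 bases on the opposite strand; Smu1 was at 211 ± 30.7 CPM in Lsd1 KO oocytes against 157 ± 20.6 CPM in Control. Its relatives Dnaja2 (361 ± 50.4 and 413 ± 24.3 CPM), Dnaja3 of mitochondria (84.2 ± 4.09 and 70.3 ± 17.1 CPM) and Dnaja4 (47.1 ± 5.01 and 66.5 ± 9.73 CPM) did not pass. Dnaja4 had no overlap between groups (log2 -0.50 ± 0.19 at an edgeR adjusted p of 0.0786) and passed after the length and GC correction (adjusted p = 0.0263).

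The Dnajb class holds the heat-inducible HSP40, Dnajb1, which was at 549, 337 and 565 CPM in Lsd1 KO oocytes, against 500.0, 665 and 685 CPM in Control. Lsd1 KO replicate 2 stood low, the groups overlapped, and the gene did not pass (log2 -0.35 ± 0.22 at an edgeR adjusted p of 0.281). Dnajb6, a suppressor of aggregation, was at 916 ± 105 and 862 ± 198 CPM, and Dnajb4 at 576 ± 93.9 and 733 ± 155 CPM, both with overlap. In contrast Dnajb2, known from neurons as HSJ1 and able to bind ubiquitin, was at 35.3, 26.8 and 27.5 CPM in Lsd1 KO oocytes, against 8.42, 13.1 and 11.6 CPM in Control. It rose 2.70-fold (log2 1.43 ± 0.25 at an edgeR adjusted p of 0.00214) and held the call with each library left out (adjusted p up to 0.0127). Dnajb2 lies on mm9 chromosome 1 from 75233040 to 75241379. Dnajb12, an ER membrane J-protein that helps to degrade misfolded proteins, went down from 16.4 ± 1.43 in Control to 9.09 ± 0.687 CPM in Lsd1 KO oocytes (log2 -0.85 ± 0.25 at an edgeR adjusted p of 0.0305). Among the fits that left out 1 library, Dnajb12 kept the call without Control replicate 3 and lost it in the other five (adjusted p up to 0.0866).

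In the Dnajc class 7 of 26 tested genes rose and 3 fell (38.5% called, beside 21.3% of all genes tested, again with no test against other genes). The numbers higher were 3 without Lsd1 KO replicate 1 or Control replicate 2, and none was lower without Lsd1 KO replicate 1 or 3. Calls over all genes also fell in these fits, from 2750 to between 1587 and 1766. Dnajc5g had the largest fold change of the 77 chaperone genes tested. It and Dnajc5b are relatives of the cysteine string protein Dnajc5, which guards vesicle fusion proteins at synapses, and both are known mainly from testis. Dnajc5g had 1203, 661 and 673 counts in Lsd1 KO oocytes against 57, 112 and 66 counts in Control, or 96.4, 59.6 and 60.4 CPM against 5.27, 8.44 and 5.96 CPM. The rise was 10.9-fold (log2 3.45 ± 0.27 at an edgeR adjusted p of 1.3e-05), and the lowest Lsd1 KO library was far above the highest Control library. Dnajc5b was at 19.2, 31.8 and 17.1 CPM in Lsd1 KO oocytes, against 8.88, 8.89 and 7.68 CPM in Control oocytes, for a log2 fold change of 1.42 ± 0.29 (SE) at an edgeR adjusted p of 0.00515. Both held the call with each library left out (adjusted p up to 0.000411 and 0.0239). Dnajc5 itself, the widely expressed gene of the 3, was at 34.1 ± 10.1 and 39.8 ± 4.24 CPM and did not pass (log2 -0.22 ± 0.23 at an edgeR adjusted p of 0.517). The Dnajc gene most abundant per length beside Dnajc9 was Dnajc21, a ribosome assembly factor, at 463 ± 64.1 and 463 ± 90.8 CPM. The Dnajc5 relatives lie apart, Dnajc5g on mm9 chromosome 5 from 31410692 to 31414897 and Dnajc5b on chromosome 3 from 19408595 to 19510862. The Dnajc5g window on GRCm38.p6 chr5:31108069-31108368, plus strand, is printed as that of the largest rise and holds neither element, so that no base is in capitals.
Dnajc5g: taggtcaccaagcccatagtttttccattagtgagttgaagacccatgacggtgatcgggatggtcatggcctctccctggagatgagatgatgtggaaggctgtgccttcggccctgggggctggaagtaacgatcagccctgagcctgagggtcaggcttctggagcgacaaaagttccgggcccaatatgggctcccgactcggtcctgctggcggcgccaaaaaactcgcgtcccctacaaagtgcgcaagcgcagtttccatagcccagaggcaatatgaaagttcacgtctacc

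Among the other Dnajc genes that rose, Dnajc9, Dnajc8 and Dnajc17 act in the nucleus. Dnajc9, a chaperone of histones H3 and H4, was at 211, 203 and 214 CPM in Lsd1 KO oocytes, against 119, 111 and 137 CPM in Control. The rise was 1.71-fold (log2 0.77 ± 0.16 at an edgeR adjusted p of 0.00657) and held with each library left out (adjusted p up to 0.0317); Dnajc9 lies on mm9 chromosome 14 from 21203860 to 21208132. Dnajc8, which is found with splicing factors, was at 195, 177 and 182 CPM against 106, 81.0 and 143 CPM (log2 0.75 ± 0.21 at an edgeR adjusted p of 0.0233). Dnajc8 was not called with Lsd1 KO replicate 1 or Control replicate 1 or 2 left out (adjusted p up to 0.0872) and under the length and GC correction (adjusted p = 0.0559). Dnajc17, also linked to splicing, rose from 3.79 ± 0.883 to 10.05 ± 2.87 CPM (log2 1.41 ± 0.36 at an edgeR adjusted p of 0.0158), and was not called with Lsd1 KO replicate 1 or Control replicate 2 left out (adjusted p up to 0.0737). It shares 179 bases with Zfyve19 (11.1 ± 1.53 and 8.70 ± 1.07 CPM) and 3067 bases with Gm14137 (6.71 ± 2.51 and 7.31 ± 0.693 CPM), both on the opposite strand. Dnajc6 (auxilin), which strips clathrin from vesicles, rose from 10, 5 and 2 counts in Control to 49, 35 and 31 counts in Lsd1 KO (log2 2.72 ± 0.65 at an edgeR adjusted p of 0.0116), and was not called with Lsd1 KO replicate 1 or Control replicate 2 left out (adjusted p up to 0.0524).

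**Figure D4:**
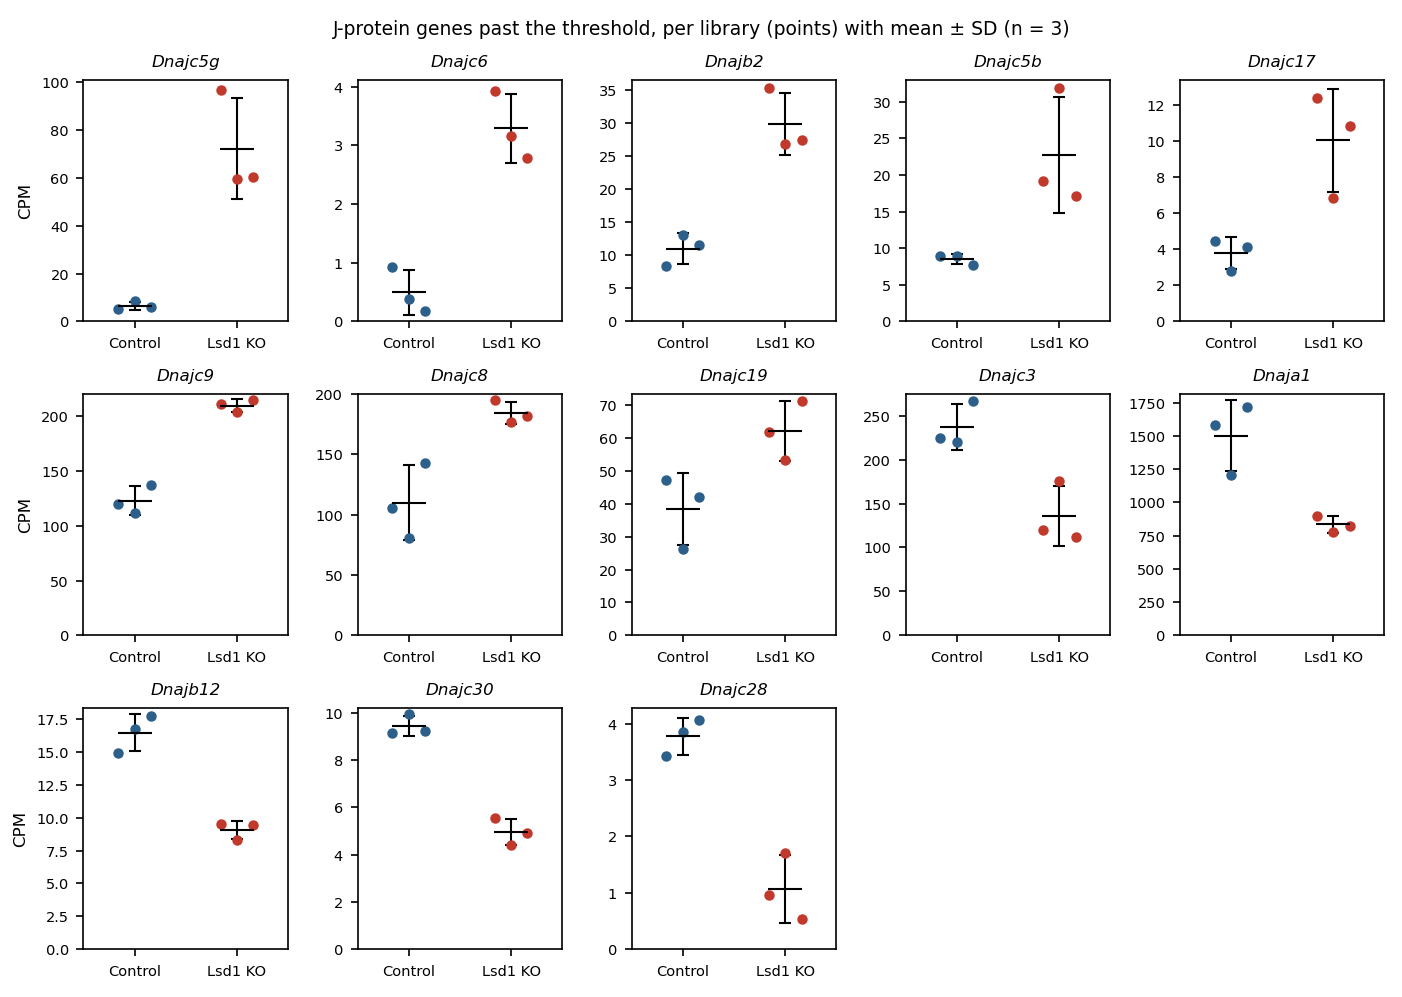
Level in each library (vertical axes, CPM after TMM scaling, each starting at 0) of the 13 J-protein genes past the threshold, ordered from the largest log2 fold change to the smallest, with 3 points per genotype and bars for the mean ± SD. Dnajc5g lies at 59.6 to 96.4 CPM in Lsd1 KO and 5.27 to 8.44 CPM in Control, and none of the 13 genes shows overlap.

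Of 9 J-proteins and chaperones of mitochondria tested, 1 was higher and 2 lower. That is 33.3% called, beside 21.3% of all genes tested, a difference that was not tested. Log2 fold changes were negative for 4 and positive for 5, beside 50.8% negative over all genes tested. The sums of the 9 overlapped between genotypes. The 9 genes of this compartment, again listed after the values had been seen (Hspa9, Hspd1, Hspe1, Dnaja3, Dnajc11, Dnajc15, Dnajc19, Dnajc28 and Dnajc30), summed to 969, 892 and 907 CPM in Lsd1 KO oocytes against 968, 885 and 920.3 CPM in Control. Dnajc19, a part of the motor that imports proteins into the matrix, rose from 38.5 ± 10.9 to 62.0 ± 9.04 CPM (log2 0.69 ± 0.23 at an edgeR adjusted p of 0.0494). It kept the call without Control replicate 1 and lost it when any other library was left out (adjusted p up to 0.161). Dnajc19 shares 13323 bases with Fxr1 on the opposite strand, and Fxr1 was at 403 ± 36.1 and 402 ± 53.8 CPM. Dnajc28 had 12, 19 and 6 counts in Lsd1 KO oocytes against 37, 51 and 45 in Control (log2 -1.81 ± 0.54 at an edgeR adjusted p of 0.0324), and kept the call without Lsd1 KO replicate 2 alone among those fits (adjusted p up to 0.109). Dnajc30, a partner of ATP synthase, fell from 9.44 ± 0.439 to 4.96 ± 0.557 CPM (log2 -0.93 ± 0.30 at an edgeR adjusted p of 0.0476), and lost the call whichever library was left out (adjusted p up to 0.134). It shares 754 bases with Wbscr22 on the opposite strand, at 10.9 ± 3.87 and 12.6 ± 1.95 CPM. Shared bases are given over whole gene spans, introns included. The sources used here do not say whether counting used strand, so reads from any exon bases that such pairs share cannot be told apart. Of the 26 Dnajc genes tested, 14 had no overlap between groups (53.8%, beside 38.7% of all genes tested, a difference that was not tested). Of these, 4 did not pass: Dnajc15, Dnajc18 and Dnajc7 were higher in all Lsd1 KO libraries and Dnajc14 lower (edgeR adjusted p = 0.0758, 0.104, 0.0779 and 0.104). Dnajc7 shares 8912 bases with Cnp and 925 with Nkiras2, and Dnajc14 shares 1990 with Ormdl2, all on the opposite strand. Cnp was called higher, at 3.57 ± 0.936 and 0.723 ± 0.242 CPM (log2 2.30 ± 0.56 at an edgeR adjusted p of 0.0124). Nkiras2 and Ormdl2 were too low to test. The part of these neighbours was not tested.

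CCT, also called TRiC, is a ring of 8 different subunits, and the test called none of the 7 Cct genes tested. Of all genes tested 21.3% were called. By edgeR 1 of the 7 had an unadjusted p under 0.05, and DESeq2 and limma-voom called none. The most abundant per length, Cct2, was at 179 ± 5.61 CPM in Lsd1 KO oocytes against 196 ± 25.2 CPM in Control (log2 -0.13 ± 0.17 at an edgeR adjusted p of 0.614), and Cct5 was at 164 ± 8.83 and 176 ± 8.53 CPM (log2 -0.10 ± 0.16 at an edgeR adjusted p of 0.693). Fold changes of the 7 ran from log2 -0.63 for Cct6a to 0.26 for Cct8, and the groups overlapped for each. Cct6a, at 30.1, 33.7 and 49.2 CPM in Lsd1 KO oocytes against 64.1, 70.96 and 39.9 CPM in Control, had an adjusted p of 0.0932, and of 0.0214 after the length and GC correction. The subunit outside the naming rule, Tcp1, was at 90.9 ± 3.30 and 110 ± 14.6 CPM and did not pass (log2 -0.28 ± 0.17 at an edgeR adjusted p of 0.26). Control replicate 3 was the lowest Control library for each of the 7 Cct genes, and without it Cct4 and Cct6a passed as lower (adjusted p = 0.0419 and 0.0236). Cct6b and Cct8l1 were too low to test.

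**Figure D5:**
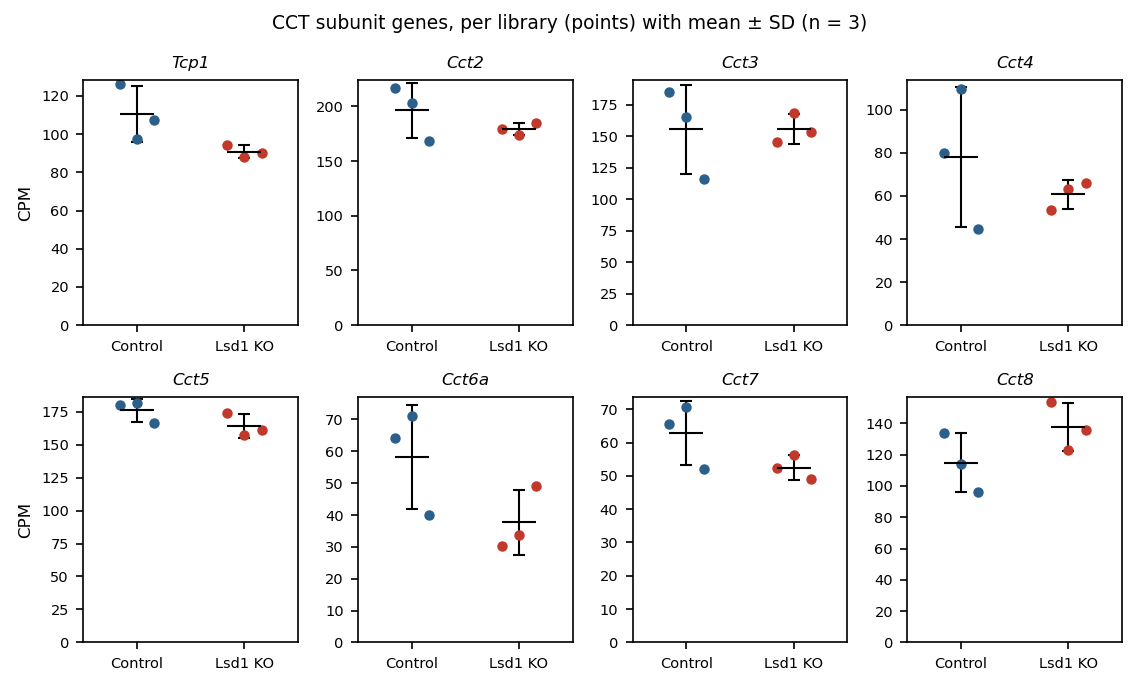
Level in each library (vertical axes, CPM after TMM scaling, each starting at 0) of the CCT subunit genes Tcp1, Cct2, Cct3, Cct4, Cct5, Cct6a, Cct7 and Cct8, with 3 points per genotype and bars for the mean ± SD. The groups overlap for each of the 7 Cct genes and not for Tcp1, and none of the genes passed the test.

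The small HSPs, which hold unfolded proteins without ATP, were sparse. Of 7 genes 2 were tested: Hspb1 (HSP27) was at 16.03, 14.1 and 21.8 CPM in Lsd1 KO oocytes against 12.7, 5.50 and 12.4 CPM in Control, and Hspb6 at 18.003 ± 4.59 and 13.3 ± 3.56 CPM. Hspb1 had no overlap between groups and an unadjusted p under 0.05, but neither gene passed in edgeR (adjusted p = 0.124 and 0.307), DESeq2 or limma-voom. Among exchange factors of the BAG and HspBP1 class, 1 of 6 tested was higher (16.7%, beside 21.3% of all genes tested). Bag6, which hands tail-anchored and misfolded proteins on for insertion or decay, was at 48.2, 48.1 and 51.4 CPM in Lsd1 KO oocytes, against 29.4, 34.5 and 31.4 CPM in Control. Its log2 fold change was 0.63 ± 0.18 (SE) at an edgeR adjusted p of 0.0243, and it was not called with Lsd1 KO replicate 1, 2 or 3 or Control replicate 1 left out (adjusted p up to 0.0894). Bag1 was at 23.8 ± 2.28 and 23.5 ± 10.6 CPM. Bag4 was at 69.7 ± 7.46 and 82.9 ± 6.28 CPM and Bag5 at 4.73 ± 1.88 and 8.72 ± 1.83 CPM, both without overlap and without a call (adjusted p = 0.324 and 0.113).

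Of the 5 heat shock factors, which bind the element described above, 3 were tested and none was called, beside 21.3% of all genes tested. Hsf1 was at 80.3, 59.9 and 76.2 CPM in Lsd1 KO oocytes, against 78.7, 66.97 and 82.6 CPM in Control, with overlap (log2 -0.08 ± 0.18 at an edgeR adjusted p of 0.799). Hsf2, a partner of HSF1 with a part in germ cell development, was at 24.9, 35.8 and 46.8 CPM and 71.02, 58.6 and 32.3 CPM, also with overlap (log2 -0.59 ± 0.29 at an edgeR adjusted p of 0.168); it passed without Control replicate 3 (log2 -0.87, adjusted p = 0.0333). Hsf5 stood at 66.7 ± 16.9 and 58.4 ± 8.02 CPM. None of the 3 tested had an unadjusted p under 0.05 in edgeR or a call with DESeq2 or limma-voom, and the same holds for Hsf2bp, Hspb11 and Hspbap1. Hsf2bp, which binds BRCA2 in meiotic recombination, was at 70.96 ± 2.38 and 63.8 ± 3.79 CPM, and Hspb11, an intraflagellar transport protein, at 8.52 ± 0.429 and 10.3 ± 5.42 CPM.

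The 18 genes that were not tested had at most 14 counts in any library (Hspa1l). They were Bag2, Cct6b, Cct8l1, Dnajb3, Dnajb5, Dnajb7, Dnajb8, Dnajc12, Dnajc22, Hsf3, Hsf4, Hspa12b, Hspa1l, Hspb2, Hspb3, Hspb7, Hspb8 and Hspb9. Dnajb7, Hspb2 and Hspb9 had no count in any library. A count of 0 allows a level of up to 0.0872 CPM over the 3 Lsd1 KO libraries and 0.0844 CPM over the 3 Control libraries (3 counts of the group's total, counting error only).

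Folding factors outside the naming rule were measured beside the chaperones. Of 84 such genes, 80 were tested, 4 were higher and 9 lower (16.3%, beside 21.3% of all genes tested). Cochaperones of HSP90 gave 1 higher and 4 lower of 23 tested (21.7%, beside 21.3% of all genes tested). Tti1, which with HSP90 matures kinases of the PIKK family, fell from 232 ± 43.7 to 98.4 ± 9.53 CPM (log2 -1.24 ± 0.19 at an edgeR adjusted p of 0.00101). Sugt1 (SGT1) fell from 283 ± 78.6 to 137 ± 15.9 CPM (log2 -1.05 ± 0.22), and both held with each library left out. The immunophilin Fkbp4 fell from 22.1 ± 2.99 to 10.2 ± 2.39 CPM (log2 -1.11 ± 0.26 at an edgeR adjusted p of 0.0105, and 0.0544 without Lsd1 KO replicate 1). Chordc1 fell (log2 -0.64 ± 0.20) and Rpap3, named after its values were seen, rose (0.51 ± 0.17); Chordc1 kept the call in 2 and Rpap3 in none of the 6 fits that left out 1 library (adjusted p up to 0.158 and 0.126). Rpap3 was also not called without the count filter or with the length and GC correction.

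In the other lists between 10% and 20% of the genes tested passed, beside 21.3% of all genes tested. Of 10 prefoldin and CCT partners tested, Pdcl, a phosducin-like partner of CCT, was lower (log2 -0.86 ± 0.22; adjusted p up to 0.085, the call being lost with Lsd1 KO replicate 1 or Control replicate 1 left out). Of 5 HSP70 partners tested, the mitochondrial exchange factor Grpel1 was lower (log2 -0.59 ± 0.19), a call kept without Control replicate 3 and lost in the other five such fits (adjusted p up to 0.128). Grpel1 was also not called with upper-quartile scaling, library totals, limma-voom, no count filter or the 10 CPM filter (adjusted p of 0.0509 to 0.0694). Among 25 ER folding and quality control genes, Edem2 (0.70 ± 0.20) and Derl1 (0.90 ± 0.26) were higher and Edem3 (-1.02 ± 0.20) and Derl3 (-0.51 ± 0.17) lower. Edem3, which trims sugars of proteins bound for degradation, went from 43.9 ± 4.31 to 21.6 ± 3.07 CPM and held with each library left out, whereas Edem2 and Derl1 held in 3 and Derl3 in none (adjusted p up to 0.107, 0.0973 and 0.175). Derl3 was also not called with upper-quartile scaling, library totals, no count filter or the 10 CPM filter, and Edem2 not with the length and GC correction (0.063). The mitochondrial protease Htra2 fell from 7.36 ± 0.989 to 1.85 ± 0.112 CPM (log2 -1.99 ± 0.38 at an edgeR adjusted p of 0.00352), as 1 of 9 in its list. Of 8 regulators of the unfolded protein response tested, Atf4 was higher, at 252 ± 46.2 against 155 ± 7.45 CPM (log2 0.70 ± 0.18 at an edgeR adjusted p of 0.0157). Atf4 was not called with Lsd1 KO replicate 2 or Control replicate 1 left out (adjusted p up to 0.07) and under the length and GC correction (0.128).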

How the data were processed

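Read counts per gene symbol were deposited by the authors as 1 column of raw counts per sample. CASAVA 1.8.2, TopHat2 2.0.7, HTSeq 0.5.3p9 and mm9 are named, per the submitters' processing notes; the sources used here give no options, annotation or use of strand. Per the labels' protocols, lysates were amplified with the NuGEN Ovation system before paired-end TruSeq libraries. The series design calls the samples biological replicates. Genes were kept by filterByExpr (minimum count 10), which left 12935, scaled by TMM and tested by edgeR 4.0.16 (quasi-likelihood, two-sided, R 4.3.3), with p-values adjusted by Benjamini-Hochberg over that whole set and a threshold of 0.05. Standard errors derive from the estimate and the F statistic. The common biological coefficient of variation came to 27.2%. Gene positions, overlaps and exonic lengths (union of exons) came from GENCODE M1 on the mm9 assembly (NCBIM37) for 94 of 95 genes. DESeq2 1.42.0, limma-voom (limma 3.58.1), other scalings and filters, a length and GC correction (loess, span 0.5), a replicate block and leaving out each library were tried. The test was tried on simulated data. The members and gene lists were chosen with earlier results of these data known. Named are all called chaperone genes, the 2 most abundant per kb in each class, Hsf1, Hsf2, Hspa1a, Hspa1b, Tcp1 and up to 4 called genes per companion list; others were named after their values were seen.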

Additional observations from a re-analysis of the deposited data

How the results depend on the processing

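Of the 18 chaperone genes called, 18 stayed past the threshold with DESeq2 size factors, DESeq2 or limma-voom, 17 without the count filter or with the length and GC correction, 16 with upper-quartile scaling or library totals, and 14 of the 14 that passed a filter of at least 10 CPM in 3 libraries. Between 7 and 14 stayed when 1 library was left out, and none changed sign in any of these fits. Over those fits the chaperone genes called higher numbered 4 to 10 and those called lower 4 to 10, the companion genes 0 to 4 and 4 to 8, and the Dnajc genes 3 to 7 and 0 to 2. All genes called numbered 1587 to 2812 in the fits that left out 1 library, beside 2750. Beside 9 chaperone genes higher and 9 lower, a threshold of 0.01 gave 4 and 2, requiring a log2 fold change of 1 or more in size gave 5 and 2, and the length and GC correction gave 14 lower. Beside 4 companion genes higher and 9 lower, the same settings gave 0 and 4, 0 and 5, and 1 higher. Over all genes the length and GC correction called 1192 higher and 1516 lower, beside 1421 and 1329. Beside 3 Dnajc genes lower, the filter of at least 10 CPM gave 1. The sign of Bag1 (main log2 fold change 0.01) turned with the length and GC correction, to -0.25; the causes were not tested. Leaving out 1 library turned signs of uncalled genes: Bag1 ran from -0.31 to 0.32, Hsf1 from -0.15 to 0.018, Dnajb6 from -0.10 to 0.18, Dnajc21 from -0.13 to 0.12 and Hspb11 from -0.49 to 0.22. Correlations of deviations over genes between samples with the same replicate number were -0.03, 0.11 and -0.02 for replicates 1 to 3. Not every sample correlated best with its own number. Such small values, with 3 samples per genotype, cannot decide whether same-numbered samples were handled together. A replicate block gave 8 chaperone genes higher and 7 lower, with Bag6, Dnajb12 and Dnajc30 no longer called among chaperone genes and Chordc1, Rpap3, Grpel1 and Derl3 among companion genes, and 2368 genes called in all beside 2750. With 3 samples per genotype and a biological coefficient of variation of 27.2%, the smallest change called among chaperone genes was 0.63 on the log2 scale (Bag6).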
